A study of Mus musculus with 27 samples.

Results

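Transcripts of 4 flavin monooxygenase genes, Fmo1, Fmo2, Fmo4 and Fmo5, and of 2 aldehyde oxidase genes, Aox1 and Aox3, were followed across hepatocytes of 9 inbred mouse strains. These 6 genes were taken by symbol from a count table of 43346 mouse genes, and all 6 were among the 14482 genes with enough counts to be tested. They comprised the classical laboratory strains C57BL/6J, A/J, 129S1/SvImJ, NOD/ShiLtJ, DBA/2J and NZO/HlLtJ and the wild-derived strains PWK/PhJ, WSB/EiJ and CAST/EiJ. Each strain gave 3 libraries of polyadenylated RNA from hepatocytes of female mice aged 12 weeks, with no allele or treatment given beyond the strain. The study set strain differences in expression beside histone marks and DNA methylation, which were not analysed here. The comparison here is of the strains with each other, and with C57BL/6J as the strain of the reference genome.

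Flavin monooxygenases are membrane enzymes of the endoplasmic reticulum that carry FAD, take electrons from NADPH and add an oxygen atom to nitrogen and sulfur atoms of drugs and food compounds. FMO1 has a broad substrate range, FMO2 is best known from lung, FMO4 is the least characterised of the 4, and FMO5 also inserts oxygen beside a carbonyl group. Aldehyde oxidases are cytosolic enzymes that hold a molybdenum cofactor, iron-sulfur centres and FAD, and oxidise aldehydes and nitrogen heterocycles with oxygen drawn from water. AOX1 and AOX3 are the forms found in mouse liver, and DBA/2 mice have been described as lacking AOX3 protein.

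Apart from Fmo5, the genes studied here lie on chromosome 1. In GENCODE M21 on GRCm38, Fmo4 lies at chr1:162793188-162813972, Fmo1 at chr1:162829561-162866610 and Fmo2 at chr1:162874317-162898726, all on the minus strand. Fmo5 lies apart at chr3:97628804-97655282 on the plus strand. Aox1 (chr1:58029931-58106413) and Aox3 (chr1:58113130-58200698) are neighbours on the plus strand with 6717 bases between them. The stretches just before the annotated starts of Aox1 and Aox3 are shown because these adjacent genes were highest in different strains. They come from the RefSeq promoter table of GRCm38.p6, which holds the C57BL/6J reference sequence, at chr1:58029719-58029930 for Aox1 and chr1:58112886-58113129 for Aox3, plus strand, with CG pairs in capitals.
Aox1: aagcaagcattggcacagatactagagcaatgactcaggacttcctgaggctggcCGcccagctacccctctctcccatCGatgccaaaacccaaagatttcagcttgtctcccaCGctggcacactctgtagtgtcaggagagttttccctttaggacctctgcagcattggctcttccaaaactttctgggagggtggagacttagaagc
Aox3: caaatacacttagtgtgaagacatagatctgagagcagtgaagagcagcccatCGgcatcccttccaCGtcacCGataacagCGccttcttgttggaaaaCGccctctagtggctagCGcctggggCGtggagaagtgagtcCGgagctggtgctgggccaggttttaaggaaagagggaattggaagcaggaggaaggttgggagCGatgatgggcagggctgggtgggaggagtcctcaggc
The Aox1 stretch held 3 CG pairs in 212 bases and the Aox3 stretch held 9 in 244 bases. In the promoter windows of 300 bases, searched on both strands, the xenobiotic response element core GCGTG occurred once in each gene, and 32.4% of 32851 RefSeq windows held it. The CCAAT box (CCAAT, in 37.4% of windows) matched both genes, and the GC box (GGGCGG, in 35.7%) matched Aox1. No match was found in either window for the HNF4 core CAAAGTCCA (0.475% of windows), the C/EBP motif TTGCNNAA (10.8%), TATAAA (13.6%) or the antioxidant response element core TGACNNNGC (12.4%). No 2 of the matches overlapped. These are matches of letters in the reference sequence, and sequences of the other strains were not used here.

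The libraries held 17015956 to 35078511 counts, so that 1 count was worth 0.0253 to 0.0516 CPM, counts per 1000000 counts of a library after TMM scaling. All 10 hepatocyte markers were present in every strain, with a summed level of 113000 to 351000 CPM per library. The 10 Kupffer cell markers summed to 33.4 to 414 CPM, the 10 endothelial markers to 50.2 to 637 CPM and the 10 stellate cell markers to 32.6 to 205 CPM, and none of these was at 0 in any strain. Cholangiocyte markers summed to at most 9.64 CPM, with Cftr at 0 in 5 strains, and lymphocyte markers to at most 1.92 CPM, with Cd8a at 0 in 4 strains. Erythroid markers summed to at most 36.6 CPM, with Hbb-bt at 0 in 129S1/SvImJ and Hba-a2 at 0 in DBA/2J. Replicate 1 of PWK/PhJ stood apart, with 414 CPM of Kupffer cell markers and 637 CPM of endothelial markers, against at most 281 and 233 CPM in the 24 libraries of the other strains. It was also the lowest of its strain for all 4 Fmo members and for Aox1, so the differences of PWK/PhJ from C57BL/6J are given with and without it. Replicate 5 of CAST/EiJ had the fewest counts of all libraries. In bulk libraries, fewer cells that express a gene and less RNA per cell cannot be told apart.

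All 6 genes differed among the 9 strains at an adjusted p under 0.05 in edgeR's quasi-likelihood test, as did 74.2% of the genes tested, so the count alone says little about these 6. Their medians, given as a description, lay above those over all genes tested. The 6 genes were chosen with earlier results of these data known, and no match for level was made. The median F statistic was 10.2 over the 6 genes against 4.39 over all genes tested, and the median fold between the highest and the lowest strain mean, with 0.5 CPM added to both, was 2.71 against 1.93. Strain accounted for a median of 82.2% of the variance of log2 CPM in the 6 genes and 66.6% over all genes. Over the 36 pairs of strains, 98 of the 216 tests of these genes passed (45.4%), against 23.4% of all gene tests, and the share over all genes ran from 7.84% to 42.4% between pairs. Pairs share strains, so these tests are not independent of each other.

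**Figure D1:**
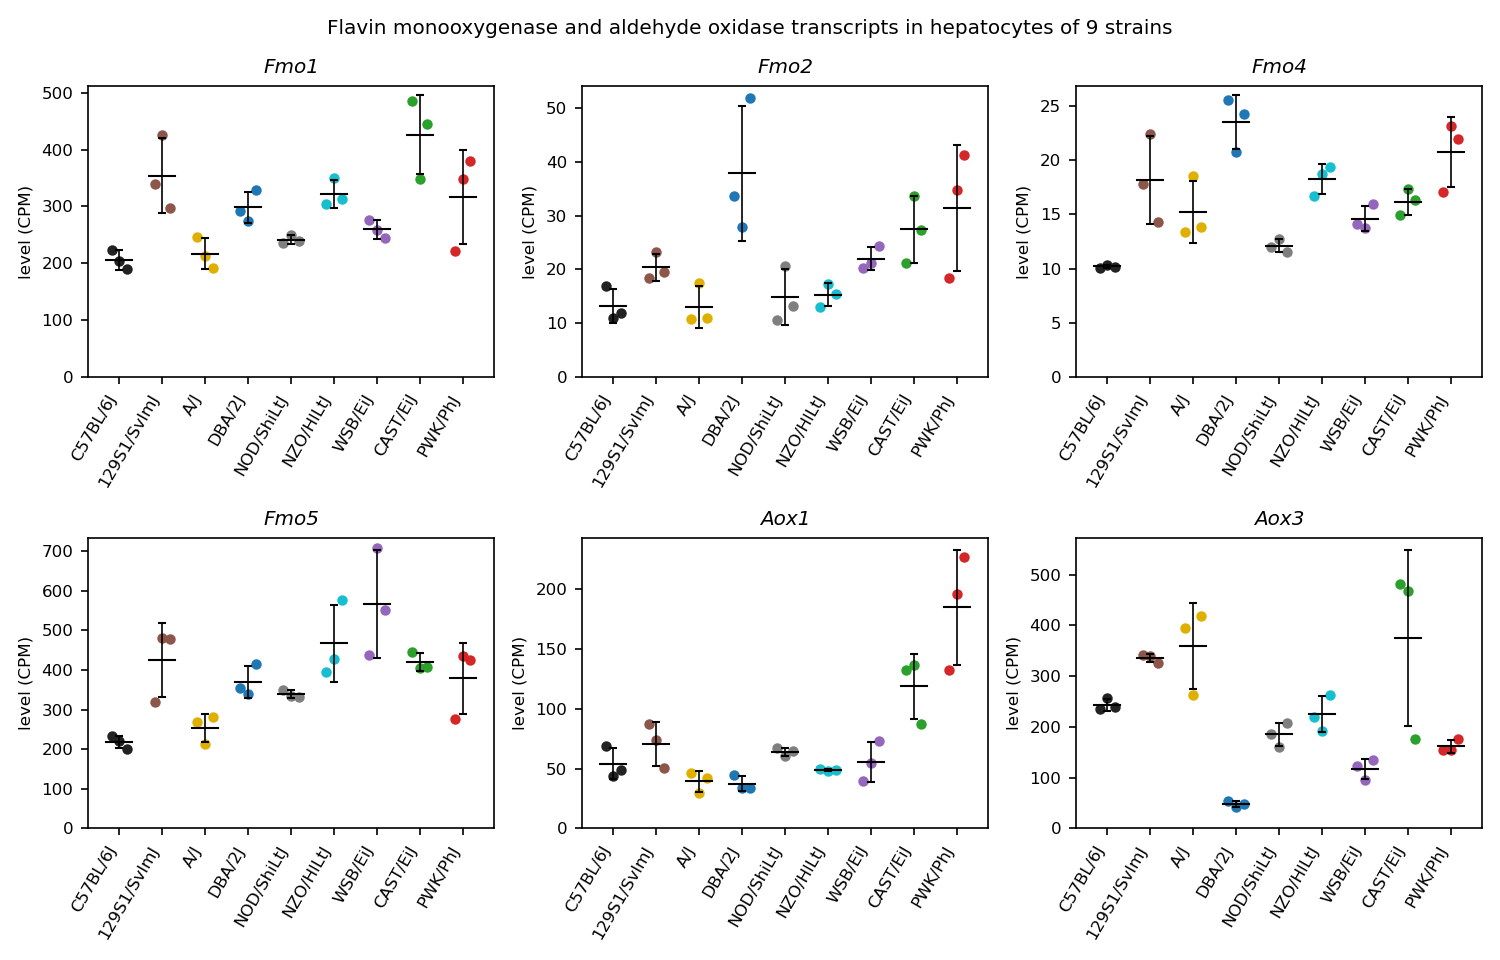
Level of each gene in CPM (linear axis from 0) by strain. Points are single libraries, horizontal bars the mean of 3 libraries and vertical bars 1 SD. Aox3 was lowest in DBA/2J (42.08 to 53.21 CPM), Aox1 was highest in PWK/PhJ (132.2 to 226.8 CPM), and Fmo4 in C57BL/6J (10.05 to 10.35 CPM) lay below every library of the other strains.

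Aox3 showed the widest range of the 6 genes, and DBA/2J set its lower end. The DBA/2J libraries stood at 53.21, 42.08 and 48.01 CPM. The next strain, WSB/EiJ, had 122.9, 95.39 and 134.6 CPM, so the groups did not overlap, and DBA/2J lay below every library of the other strains. Against C57BL/6J, whose libraries had 235.3, 256.6 and 238.6 CPM, the log2 fold change in DBA/2J was -2.35 ± 0.258 (SE; edgeR adjusted p = 3.71e-07), and the ratio of means was 0.196. DBA/2J was lower than all 8 other strains, with edgeR adjusted p-values from 3.85e-09 to 0.000597. The 8 calls were kept in each fit that left out 1 library. Transcripts of Aox3 were still well counted in DBA/2J, with at least 838 counts per library. Endothelial and stellate cell markers in DBA/2J (64.6 to 174 and 59.6 to 129 CPM) lay within the range of the other strains, and Kupffer cell markers ran from 33.4 CPM, the lowest of any library, to 186 CPM.

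At the upper end, Aox3 averaged 375.2 ± 173 CPM in CAST/EiJ, 359 ± 84.3 in A/J and 335.5 ± 8.17 in 129S1/SvImJ (SD, n = 3 for each strain mean in this text). C57BL/6J (243.5 ± 11.5), NZO/HlLtJ (225.1 ± 35.5) and NOD/ShiLtJ (185.2 ± 23.4) lay between. PWK/PhJ (161.6 ± 12.8), WSB/EiJ (117.6 ± 20.1) and DBA/2J (47.77 ± 5.57) were lowest. Of the 8 neighbours in this order, WSB/EiJ and DBA/2J differed (edgeR adjusted p = 0.000597), and for the other 7 pairs no difference passed the threshold. The CAST/EiJ mean hid a split, since replicates 1 and 4 had 482.4 and 467.1 CPM and replicate 5 had 176.2 CPM, below every C57BL/6J library. The difference of CAST/EiJ from C57BL/6J (log2 fold change 0.62 ± 0.245 (SE), edgeR adjusted p = 0.0476) rested on single libraries: without replicate 5 it was 0.96 (edgeR adjusted p = 0.000351), and it missed the threshold in 5 of 6 fits that left out 1 of these libraries (edgeR adjusted p from 0.000351 to 0.259 over all alternatives). WSB/EiJ was lower than C57BL/6J by a log2 fold change of -1.05 ± 0.248 (SE; edgeR adjusted p = 0.00425).

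Aox1 was highest in the strains CAST/EiJ and PWK/PhJ, which derive from wild mice of other subspecies. Whether reads of each strain were aligned to a genome of that strain is not given in the sources used here, and the part of alignment in the values of these strains was not tested. The PWK/PhJ libraries had 132.2, 196 and 226.8 CPM and the CAST/EiJ libraries had 132.2, 136.9 and 87.54 CPM. No library of the other 7 strains exceeded 87.37 CPM, so both strains lay above all of them, CAST/EiJ replicate 5 only just. PWK/PhJ was higher than all 8 other strains, with edgeR adjusted p-values from 1.38e-07 to 0.0418, the last against CAST/EiJ, whose libraries it overlapped. The count was 7 without CAST/EiJ replicate 1 or 5, PWK/PhJ replicate 2 or 3, NOD/ShiLtJ replicate 2, NZO/HlLtJ replicate 1 or 2, or WSB/EiJ replicate 3. CAST/EiJ was higher than the remaining 7, with 129S1/SvImJ nearest (log2 fold change 0.75 ± 0.24 (SE), edgeR adjusted p = 0.0229), and than 6 without CAST/EiJ replicate 1 or 4 or 129S1/SvImJ replicate 2 or 3. Against C57BL/6J the log2 fold change was 1.77 ± 0.246 (SE; edgeR adjusted p = 6.15e-06) in PWK/PhJ and 1.13 ± 0.242 (SE; edgeR adjusted p = 0.00072) in CAST/EiJ.

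Some markers of other cell types were high in PWK/PhJ, the strain with the most Aox1. The means of PWK/PhJ were 355 CPM for endothelial and 166 CPM for stellate cell markers, each the highest of the strains, and 233 CPM for Kupffer cell markers, beside 236 CPM in C57BL/6J. Across the 9 strain means, which share library scaling, Aox1 had a Pearson correlation of 0.475 with the endothelial and 0.0416 with the Kupffer cell sum. Their part in the result was not tested. Within PWK/PhJ, the library with the most marker counts, replicate 1, had the least Aox1, and without it the log2 fold change against C57BL/6J was 1.96 (edgeR adjusted p = 2.35e-06). In CAST/EiJ, endothelial markers (52.7 to 141 CPM) and Kupffer cell markers (56.8 to 68.5 CPM) were within the range of the other strains. Its hepatocyte markers (113000 to 126000 CPM) lay below all 24 libraries of the other strains (127000 to 351000 CPM). Its lowest stellate, lymphocyte and erythroid marker sums (32.6, 0.0887 and 2.19 CPM) were also below the others' lowest (34.6, 0.0956 and 4.71 CPM). The part of these markers in the CAST/EiJ results was not tested. Below these 2 strains, mean Aox1 ran from 70.64 ± 18.5 CPM in 129S1/SvImJ through 64.19 ± 3.36 in NOD/ShiLtJ, 55.92 ± 16.7 in WSB/EiJ, 54.13 ± 13 in C57BL/6J, 49.19 ± 0.919 in NZO/HlLtJ and 39.44 ± 8.58 in A/J to 37.59 ± 6.17 in DBA/2J. No neighbours among these 7 passed the threshold. Counts of Aox1 were not whole numbers in 16 of 27 libraries, and 0.0786% of the 75-base stretches of its transcripts occur in other genes.

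The neighbouring Aox1 and Aox3 therefore stood in different proportions by strain. The ratio within a library needs no scaling between libraries, and counts were divided by exon length. In A/J the log2 ratio of Aox1 to Aox3 was -3.49 ± 0.12 (SD, n = 3), an Aox1 level 0.0892 of that of Aox3. In DBA/2J it was -0.66 ± 0.12 and in PWK/PhJ -0.14 ± 0.34, where replicates ran from -0.53 to 0.06 and both genes stood at a similar level per kilobase. The other 6 strains had means from -2.59 (129S1/SvImJ) to -1.41 (WSB/EiJ). Both strains came near to equal levels, DBA/2J with the lowest mean of Aox3 and also of Aox1, PWK/PhJ with the highest mean of Aox1. Across the 9 strain means of log2 CPM, Aox1 and Aox3 had a Pearson correlation of 0.25, which describes 9 points that share library scaling.

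**Figure D2:**
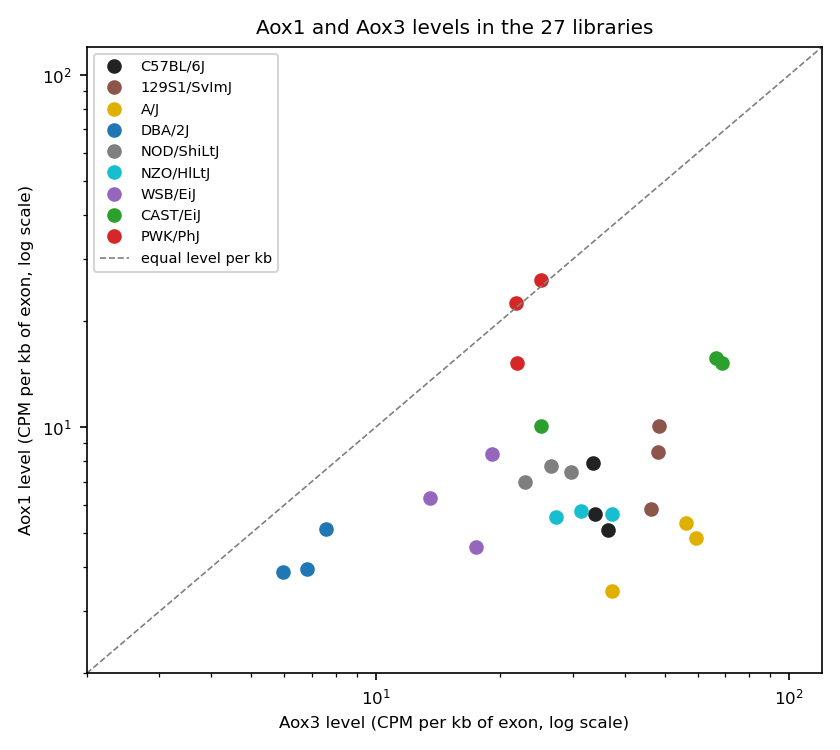
Aox1 against Aox3 in each of the 27 libraries, both in CPM per kilobase of exon on log axes. Colours mark strains and the dashed line marks equal levels. The DBA/2J libraries lie at the left (low Aox3), PWK/PhJ replicates 2 and 3 at the top (high Aox1), with replicate 1 at the Aox1 level of CAST/EiJ replicates 1 and 4, and CAST/EiJ replicate 5 lies apart from replicates 1 and 4 along the Aox3 axis.

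Among the flavin monooxygenases, C57BL/6J had the lowest mean of Fmo1, Fmo4 and Fmo5. Fmo4 gave the tightest groups. Its C57BL/6J libraries had 10.05, 10.35 and 10.18 CPM, and the DBA/2J libraries, the highest on average, had 25.59, 20.79 and 24.29 CPM. The C57BL/6J libraries lay below every library of the other 8 strains, the closest being NOD/ShiLtJ with 11.98, 12.75 and 11.57 CPM. In DBA/2J the log2 fold change against C57BL/6J was 1.21 ± 0.156 (SE; edgeR adjusted p = 4.52e-06). C57BL/6J was lower than 7 of the 8 strains in edgeR's test, all but NOD/ShiLtJ (log2 fold change 0.25 ± 0.155 (SE), adjusted p = 0.289). That count was 5 without any 1 of the 3 C57BL/6J libraries, where the calls against A/J and WSB/EiJ were lost. These were also the smallest called differences of Fmo4 from C57BL/6J: 0.58 ± 0.156 in A/J (edgeR adjusted p = 0.0191, from 0.00671 with DESeq2 to 0.149 over the alternatives) and 0.52 ± 0.156 in WSB/EiJ (edgeR adjusted p = 0.0261, from 0.0131 to 0.116).

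Some markers of other cell types stood high in C57BL/6J, where these 3 genes were lowest. Its Kupffer cell markers, all 10 with counts, summed to 198 to 264 CPM, and their mean of 236 CPM was the highest of the strains, beside 233 CPM in PWK/PhJ. Its lymphocyte markers also had the highest mean (1.25 CPM), and its endothelial markers (137 to 233 CPM) had the second highest after PWK/PhJ. Its stellate cell markers did not stand high, with a mean of 76.4 CPM beside means from 43.8 CPM in NZO/HlLtJ to 166 CPM in PWK/PhJ. Hepatocyte markers (160000 to 202000 CPM) lay within the range of the other strains. Across the 9 strain means, which share library scaling, the Kupffer cell sum had a Pearson correlation of -0.685 with Fmo1, -0.282 with Fmo4 and -0.69 with Fmo5. The part of these markers in the low C57BL/6J levels was not tested.

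The remaining strain means of Fmo4 were 20.73 ± 3.24 CPM in PWK/PhJ, 18.25 ± 1.4 in NZO/HlLtJ, 18.16 ± 4.04 in 129S1/SvImJ, 16.16 ± 1.21 in CAST/EiJ, 15.25 ± 2.85 in A/J, 14.6 ± 1.16 in WSB/EiJ and 12.1 ± 0.6 in NOD/ShiLtJ. No neighbours in this order, DBA/2J (23.56 ± 2.48) and C57BL/6J (10.19 ± 0.15) at its ends included, differed past the threshold. Over all pairs, 17 of 36 did. The log2 fold change of PWK/PhJ against C57BL/6J was 1.02 ± 0.155 (SE; edgeR adjusted p = 2.01e-05) with replicate 1 and 1.15 (edgeR adjusted p = 8.93e-06) without it.

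Fmo5, with the highest level per exon length of the 6 genes, was lowest in C57BL/6J and highest in WSB/EiJ. The C57BL/6J libraries had 233, 221.5 and 201.6 CPM. The WSB/EiJ libraries had 437.5, 708.8 and 552.1 CPM, a wide spread that did not overlap C57BL/6J. The log2 fold change was 1.37 ± 0.202 (SE; edgeR adjusted p = 2.05e-05), and the means differed 2.59-fold. C57BL/6J was lower than 7 of the 8 other strains, all but A/J, whose libraries (267.5, 213.4 and 281.1 CPM) overlapped it (log2 fold change 0.22 ± 0.198 (SE), edgeR adjusted p = 0.65). Without C57BL/6J replicate 4 the count was 5, the calls for DBA/2J and NOD/ShiLtJ being lost. The call for NOD/ShiLtJ (log2 fold change 0.63 ± 0.199 (SE), edgeR adjusted p = 0.0327) was lost in 5 of 6 fits that left out 1 library of either strain, with adjusted p-values from 0.0127 (DESeq2) to 0.133 (edgeR) over all alternatives. WSB/EiJ was higher than 5 of the 8 strains, and than 2 without WSB/EiJ replicate 3 and 3 without replicate 4.

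Between these ends, Fmo5 averaged 467.1 ± 96.3 CPM in NZO/HlLtJ, 426.2 ± 93.2 in 129S1/SvImJ, 419.5 ± 22.3 in CAST/EiJ, 379 ± 89.6 in PWK/PhJ, 369.8 ± 40.2 in DBA/2J, 338.7 ± 10.2 in NOD/ShiLtJ and 254 ± 35.8 in A/J. The low end was shared by C57BL/6J and A/J, and no neighbours in the order differed past the threshold. PWK/PhJ replicate 1 had 275.7 CPM beside 436.2 and 425 CPM in replicates 2 and 3. The difference of PWK/PhJ from C57BL/6J was 0.79 ± 0.199 on the log2 scale (SE; edgeR adjusted p = 0.00429) with replicate 1 and 0.98 (edgeR adjusted p = 0.000709) without it.

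Fmo1 had the narrowest range of the 6 genes, 2.08-fold between the strain means at its ends. The CAST/EiJ libraries had 484.7, 348.5 and 445.3 CPM and the C57BL/6J libraries 223.5, 203.1 and 189.2 CPM, with no overlap. The log2 fold change was 1.05 ± 0.176 (SE; edgeR adjusted p = 4.68e-05). CAST/EiJ was higher than 5 strains, C57BL/6J, A/J, NOD/ShiLtJ, WSB/EiJ and DBA/2J. It was higher than 4 without CAST/EiJ replicate 1 or 5 or DBA/2J replicate 2 or 3, and than 7 without CAST/EiJ replicate 4. Across the 9 strain means, which share library scaling, Fmo1 had a Pearson correlation of -0.734 with the hepatocyte marker sum. That sum was lowest in CAST/EiJ, and Alb alone had 80400 to 266000 CPM per library. The coefficient was also -0.734 with the erythroid, -0.685 with the Kupffer cell and -0.679 with the lymphocyte sum, and from -0.377 to -0.31 with the remaining lists. The part of these markers in the Fmo1 levels was not tested. The means in order were 426.2 ± 70.1 CPM in CAST/EiJ, 354.1 ± 66.2 in 129S1/SvImJ, 322.4 ± 24.4 in NZO/HlLtJ, 316.2 ± 83.1 in PWK/PhJ, 298.4 ± 27.8 in DBA/2J, 259.8 ± 16.4 in WSB/EiJ, 241.2 ± 7.73 in NOD/ShiLtJ, 217 ± 26.8 in A/J and 205.3 ± 17.3 in C57BL/6J. No neighbours differed past the threshold, and all of them overlapped.

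In PWK/PhJ, Fmo1 had 221.9 CPM in replicate 1 and 347.5 and 379.1 CPM in replicates 2 and 3, and replicate 1 fell among the C57BL/6J values. Its log2 fold change against C57BL/6J was 0.62 ± 0.174 (SE; edgeR adjusted p = 0.00966), 0.82 without replicate 1 (edgeR adjusted p = 0.00049), and the call was lost in 3 of 6 fits that left out 1 library (edgeR adjusted p from 0.00049 to 0.116 over all alternatives). Part of the Fmo1 signal is uncertain. Its counts were not whole in 26 of 27 libraries, and 6.11% of the 75-base stretches of its transcripts also occur, in either orientation, in transcripts of other genes.

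Fmo2 was among the 2 lowest members in level and had its highest strain means in DBA/2J, PWK/PhJ and CAST/EiJ. The DBA/2J libraries had 33.65, 27.92 and 51.93 CPM, and the C57BL/6J libraries 16.88, 10.96 and 11.86 CPM. These groups did not overlap, and the log2 fold change was 1.52 ± 0.288 (SE; edgeR adjusted p = 0.000688). DBA/2J was higher than 5 strains: C57BL/6J, 129S1/SvImJ, A/J, NOD/ShiLtJ and NZO/HlLtJ. The highest DBA/2J library, replicate 4, had the lowest Kupffer cell and endothelial marker sums of its strain (33.4 and 64.6 CPM), and without it the number of strains was 4. It was also 4 without DBA/2J replicate 2 or any 1 of the 129S1/SvImJ libraries, and 6 without DBA/2J replicate 3 or PWK/PhJ replicate 1. The means of the other strains were 31.39 ± 11.8 CPM in PWK/PhJ, 27.43 ± 6.24 in CAST/EiJ, 21.98 ± 2.15 in WSB/EiJ, 20.36 ± 2.48 in 129S1/SvImJ, 15.29 ± 2.18 in NZO/HlLtJ, 14.81 ± 5.23 in NOD/ShiLtJ, 13.24 ± 3.19 in C57BL/6J and 13.06 ± 3.89 in A/J, against 37.84 ± 12.5 in DBA/2J. No neighbours in this order differed past the threshold. In PWK/PhJ, replicate 1 again lay low, at 18.33 CPM beside 34.67 and 41.18 CPM, and the log2 fold change against C57BL/6J was 1.24 ± 0.286 (SE; edgeR adjusted p = 0.00202) with it and 1.52 (edgeR adjusted p = 0.000216) without it.

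Read by strain, each of the 8 comparisons with C57BL/6J used the same 3 C57BL/6J libraries, so the comparisons are not independent and their shared directions are not a separate result. In CAST/EiJ all 6 genes were called higher, where 38% of all genes tested were called in either direction. In PWK/PhJ 5 were higher, all but Aox3 (log2 fold change -0.59 ± 0.246 (SE), edgeR adjusted p = 0.0795, and -0.56 without replicate 1, adjusted p = 0.144), beside 26.2% of all genes. Without replicate 1 the count was also 5. In DBA/2J 4 were called, Fmo2, Fmo4 and Fmo5 higher and Aox3 lower, beside 9.06%.

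In 129S1/SvImJ and in NZO/HlLtJ the same 3 genes, Fmo1, Fmo4 and Fmo5, were higher, beside 20.9% and 29.3% of all genes. In WSB/EiJ 3 were called, Fmo4 and Fmo5 higher and Aox3 lower, beside 13.6%. The single called gene was Fmo4 in A/J, beside 7.84%, and Fmo5 in NOD/ShiLtJ, beside 15.9%. The median log2 fold change of the 6 genes ran from 0.15 in A/J to 0.995 in CAST/EiJ. That of all genes lay between -0.02 and 0.01, which the TMM scaling brings about, so it is no yardstick. C57BL/6J, shared by all comparisons, also had the lowest mean of Fmo1, Fmo4 and Fmo5. Of the 48 differences, 26 were called and 20 of these were called under each alternative tried. The 6 that were lost under some alternative were Aox3 in CAST/EiJ, Fmo1 in PWK/PhJ, Fmo4 in A/J and WSB/EiJ, and Fmo5 in DBA/2J and NOD/ShiLtJ.

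**Figure D3:**
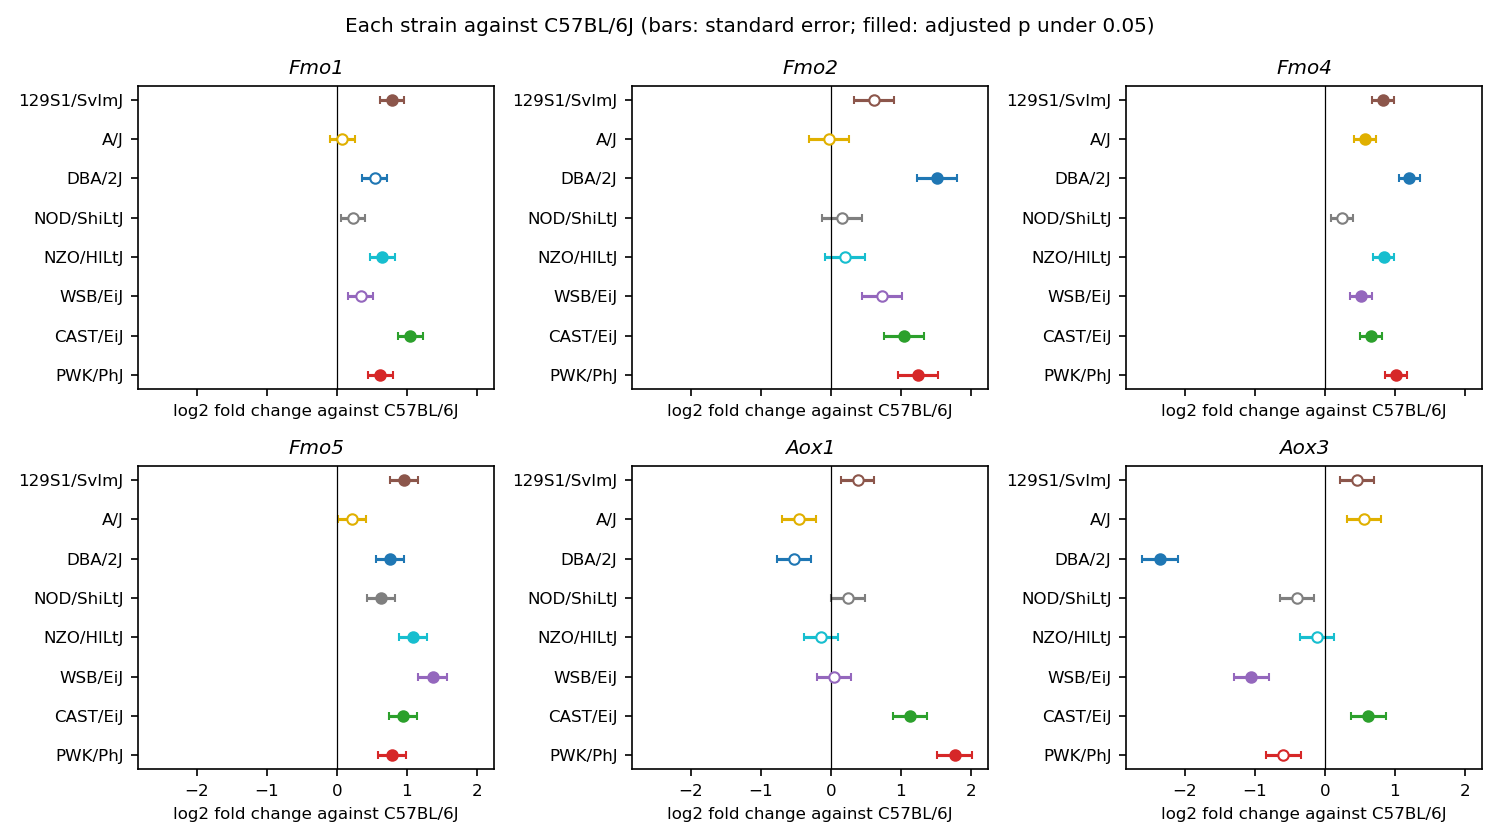
Log2 fold change of each gene in each of 8 strains against C57BL/6J, with 1 standard error. Filled points passed an adjusted p of 0.05 in edgeR and open points did not. Every called Fmo difference lies to the right of 0, while Aox3 lies at -2.35 in DBA/2J and Aox1 at 1.77 in PWK/PhJ.

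Levels can be compared between genes per kilobase of exon. On this scale Fmo5 had a mean of 67.33 CPM per kilobase over the 27 libraries, followed by Fmo1 (46.54), Aox3 (32.4), Aox1 (8.63), Fmo4 (4.466) and Fmo2 (3.871). The log2 ratio of Fmo1 to Fmo5 within a library lay between -0.67 and -0.14 on average in 8 strains and was -1.25 ± 0.4 (SD, n = 3) in WSB/EiJ, the strain with the most Fmo5. Across the 9 strain means of log2 CPM, the 4 Fmo genes had pairwise Pearson correlations from 0.48 (Fmo4 and Fmo5) to 0.76 (Fmo2 and Fmo4). Aox3 had coefficients with the Fmo genes from -0.59 (Fmo2) to 0.08 (Fmo1). These describe 9 points that share library scaling.

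Of the other genes of both families, Fmo6, which lies 17825 bases from Fmo2 on chromosome 1, was counted above the floor of 3 counts in DBA/2J and in no other strain. The DBA/2J libraries had 88, 112 and 162 counts (3.716, 5.624 and 5.165 CPM), and no other library had more than 2. It passed the filter on low counts only through DBA/2J, so no test of it is given. Against 3 counts in each library of the other strain, DBA/2J was at least 36.6-fold higher than A/J and at least 58.3-fold higher than NZO/HlLtJ, the ends of the range over the 8 strains. None of the 75-base stretches of Fmo6 occurs in another gene, and its counts were not whole in 4 libraries. Fmo9, Gm4847 and Aox4 had 0 counts in all libraries, which allows at most 3 counts in each, Gm4846 had 1 count in total, and Aox2 had 24 counts in total with at most 4 in a library. Intervals and floors cover counting error only.

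**Figure D4:**
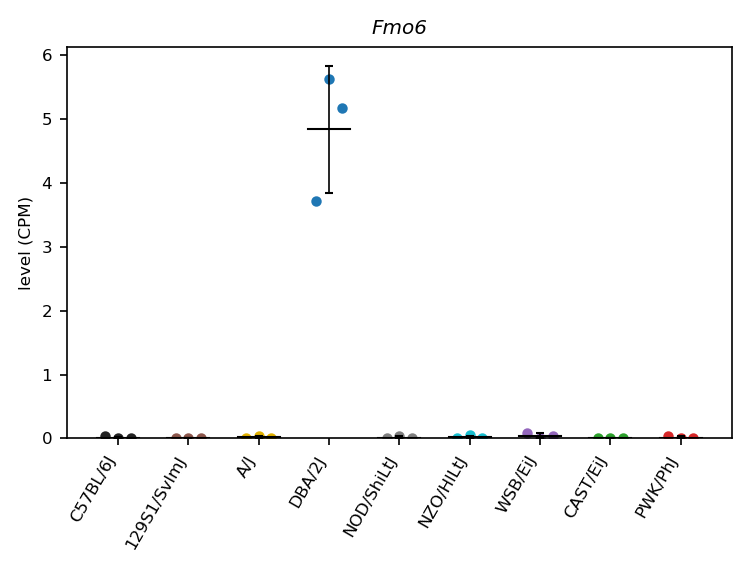
Level of Fmo6 in CPM (linear axis from 0) by strain. Points are libraries, horizontal bars means and vertical bars 1 SD (n = 3). Fmo6 stands out in the DBA/2J libraries (3.716 to 5.624 CPM), with at most 2 counts in any other library.

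Genes that serve these enzymes were read from 4 lists of 28 genes, of which 27 were tested and 23 differed among strains in edgeR's test, beside 74.2% of all genes, with a median of 1.85-fold between the highest and the lowest strain mean. Of 9 molybdenum enzymes and cofactor genes, 8 passed. Xdh, xanthine dehydrogenase, a relative of the aldehyde oxidases with the same cofactors, ran from 36.71 ± 6.13 CPM in PWK/PhJ to 120.4 ± 16.1 in NZO/HlLtJ (edgeR adjusted p = 8.13e-11). The strain with the least Xdh, PWK/PhJ, had the most Aox1, while NZO/HlLtJ, with the most Xdh, was not the lowest for Aox1. Their relation over the strains was not tested. Mocos, which adds the sulfur that both enzymes need on their molybdenum, ran from 28.09 ± 4.23 in A/J to 67.31 ± 8.07 CPM in CAST/EiJ (edgeR adjusted p = 1.93e-06). Suox, sulfite oxidase, ran from 106.5 ± 7.7 in CAST/EiJ to 206.1 ± 42.2 CPM in WSB/EiJ (edgeR adjusted p = 5.95e-05). DBA/2J, lowest for Aox3, was at neither end of these 3 genes.

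Of the flavin cofactor and riboflavin transport genes, 4 of 5 were tested, all but Slc52a3, and all 4 passed. Slc25a32, a mitochondrial carrier linked to folate and FAD, ran from 6.69 ± 1.21 CPM in NZO/HlLtJ to 18.62 ± 5.34 in 129S1/SvImJ, and Slc52a2, a riboflavin transporter, from 3.871 ± 1.36 in PWK/PhJ to 11.89 ± 2.8 CPM in C57BL/6J. Flad1, which makes FAD, ran from 22.08 ± 2.32 CPM in A/J to 38.74 ± 2.25 in CAST/EiJ. All 4 genes of microsomal electron transfer passed, with folds from 2.04 to 2.43. Cyb5a and Cyb5b, the microsomal and the outer mitochondrial cytochrome b5, and Cyb5r3, a cytochrome b5 reductase, were lowest in A/J, at 301.8 ± 83.3, 153 ± 35.5 and 173.5 ± 22.2 CPM, and Por, cytochrome P450 reductase, was lowest in NZO/HlLtJ at 287.7 ± 62.3 CPM.

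Of 10 liver transcription factors, 7 passed. Ahr, the aryl hydrocarbon receptor, ran from 13.28 ± 0.789 CPM in WSB/EiJ to 31.75 ± 2.6 in CAST/EiJ (edgeR adjusted p = 0.000157). Nfe2l2, a regulator of oxidative stress genes, ran from 33.68 ± 4.74 in NZO/HlLtJ to 61.56 ± 10.7 CPM in WSB/EiJ (edgeR adjusted p = 0.000802). The widest range of strain means in this list was that of Cebpb, a C/EBP factor, from 8.707 ± 1.23 CPM in DBA/2J to 45.28 ± 41.6 in 129S1/SvImJ, where the SD was close to the mean (edgeR adjusted p = 0.00398). Its counts were not whole in any of the 27 libraries. Hnf4a (edgeR adjusted p = 0.0524), Foxa1 (0.0615) and Foxa2 (0.501) did not pass.

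Among 6093 named genes averaging at least 10 CPM, the one whose strain means were most like those of Aox3 was Usp1 (Pearson r = 0.96 over 9 strains, 0.93 without DBA/2J), then Slc25a46 (0.89, and 0.71 without DBA/2J) and Slc25a30 (0.87, and 0.81). Usp1 and Slc25a46 themselves did not differ among strains past the threshold (edgeR adjusted p = 0.319 and 0.364). For Aox1 the genes were Senp6 (r = 0.97, and 0.97 without PWK/PhJ), Atp5l (0.93, and 0.84) and Cyp7b1 (0.93, and 0.83), the last an oxysterol hydroxylase of bile acid synthesis. With so many genes and 9 points, high coefficients occur for many patterns, and they are given as a description.

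For Fmo1 they were Wbp11 (r = 0.97), Rplp2 (0.96) and Fam32a (0.96), and for Fmo5 Gga2 (0.91), Ap1b1 (0.91) and Got1 (0.90). For Fmo2 they were Sfi1 (0.92), Ablim1 (0.89) and Dhtkd1 (0.87), and for Fmo4 Nkiras1 (0.87), Rufy3 (0.85) and Arhgef40 (0.83). Rufy3 did not differ among strains past the threshold (edgeR adjusted p = 0.121), and the other 11 of these genes did. Without the strain farthest from the median, C57BL/6J for Fmo1, Fmo4 and Fmo5 and DBA/2J for Fmo2, these coefficients lay between 0.76 (Arhgef40) and 0.96 (Rplp2). Within 200 kb of the 6 genes lay 11 other tested protein-coding genes, and 8 of them differed among strains, a share close to the 74.2% of all genes tested. Fmo6, which passed the filter only through DBA/2J, is in both the 11 and the 8, and its call carries no weight.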

How the data were processed

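RNA was sequenced from hepatocytes of 9 strains with a kit that, per the labels' protocols, selects polyadenylated RNA and is not stated to keep strand. The authors deposited 1 table of estimated counts (expected counts) per Ensembl gene for 27 libraries, of which 14.71% of values were not whole. FastQC 0.11.5, DESeq2 and the builds GRCm38 and mm10 are named in the submitters' processing notes, and the aligner, counter and annotation are not given in the sources used here. Symbols were taken from GENCODE M21, which named 42462 of 43346 identifiers; the others held 0.05793% of counts.

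Rounded counts were tested with edgeR 4.0.16, limma 3.58.1 and R 4.3.3: filterByExpr by strain, TMM factors (0.722 to 1.23), 1 quasi-likelihood fit over 27 libraries, a test of all strains and of each of 36 pairs, Benjamini-Hochberg adjustment over 14482 genes and a threshold of 0.05. SE is the absolute log2 fold change over the square root of F. Log2 CPM used a prior count of 2. The script was tested on simulated counts. Libraries held 17015956 to 35078511 counts. The labels call the libraries of a strain biological replicates, and nothing more is stated. The p-values set strain differences against the spread between libraries of a strain, estimated over all 27 libraries with information shared across genes.

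The genes named are the 6 members, the other Fmo and Aox genes, up to 3 genes per list with the largest F among those that passed, the 3 genes most alike to each member (passing over predicted genes, pseudogenes and Mup genes) and the 2 neighbours within 200 kb with the largest F. Slc52a3, Por, Cebpb, Hnf4a, Foxa1 and Foxa2 are further members of the lists, and the values named for them and the extremes by strain were chosen after values were seen. Members and lists were chosen with earlier results of these data known. Alternatives were DESeq2 1.42.0, median-of-ratios factors, other filters, the replicate number as a block, 6-library fits, leaving out each library, and, chosen after seeing the data, removal of a GC trend. The median correlation of deviations was 0.02 over 76 pairs of samples with the same replicate number. It was -0.00458 over 248 pairs with different numbers. Whether some replicate numbers share a batch was not tested. No protein sequences were used here. Some genes that these rules name are not reported here.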

Additional observations from a re-analysis of the deposited data

How the results depend on the processing

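No called result reversed. Uncalled differences near 0 could change sign, as Fmo2 in A/J against C57BL/6J (log2 fold change -0.0229, and 0.0127 with the replicate block). All 6 members kept their strain effect under other size factors, both other filters, the replicate block, the GC correction and DESeq2. They also kept it in each of 27 fits that left out 1 library. The replicate block used numbers that are not stated to pair the samples. It left 0 members called in NOD/ShiLtJ against C57BL/6J in place of 1. Fmo5 in WSB/EiJ was then higher than 3 strains in place of 5. With only the 6 libraries of both strains, A/J against C57BL/6J had 0 members called in place of 1. The cause was not tested. Leaving out 1 library gave 0 to 1 members for A/J and for NOD/ShiLtJ, 3 to 3 for 129S1/SvImJ and NZO/HlLtJ, 3 to 4 for DBA/2J, 2 to 3 for WSB/EiJ, 5 to 6 for CAST/EiJ and 4 to 5 for PWK/PhJ. Fmo5 in WSB/EiJ was then higher than 2 to 6 strains, Fmo1 in CAST/EiJ than 4 to 7, Fmo2 in DBA/2J than 4 to 6, Aox1 in PWK/PhJ than 7 to 8 and Aox1 in CAST/EiJ than 6 to 7. C57BL/6J was lower than 5 to 7 strains for Fmo4 and for Fmo5. Aox3 in DBA/2J stayed lower than all 8. These counts by strain were added after seeing the data. With DESeq2, which was run over all strains and for the pairs with C57BL/6J, C57BL/6J was lower than 7 strains for Fmo4 and 7 for Fmo5. Of the differences from C57BL/6J that missed the threshold, 4 passed it under some alternative: Fmo1 in DBA/2J (edgeR adjusted p = 0.0535, from 0.0137 with DESeq2 to 0.189 over the alternatives), Fmo2 in 129S1/SvImJ and WSB/EiJ, and Aox3 in PWK/PhJ. With 3 libraries a strain, and single libraries that depart from their strain (PWK/PhJ replicate 1, CAST/EiJ replicate 5), the order of strains close in level is not settled.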
